A study of Mus musculus with 30 samples.

Results

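The genes described here are 10 markers of myoepithelial and smooth muscle cells in the salivary gland: Acta2, Actg2, Myh11, Mylk, Cnn1, Tagln, Lmod1, Krt14, Krt5 and Trp63. They were chosen by name and found through the annotation of the array platform, and they are 10 of the 18193 genes with a probe set. All 10 were among the 12998 genes tested. Of these members, 7 encode proteins of the contractile apparatus and 3 encode basal epithelial proteins.

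Myoepithelial cells are epithelial cells that lie between the secretory cells and the basement membrane, wrap around acini and small ducts, and contract to help expel saliva. They combine the keratins of basal epithelium with the actin and myosin of smooth muscle, so their contractile genes are also transcribed in the smooth muscle of blood vessel walls. In both cell types contraction starts when calcium activates myosin light chain kinase, and the contractile genes are switched on by serum response factor (SRF) and its cofactors of the myocardin family. In whole tissue, fewer cells of a type and less RNA per cell cannot be told apart.

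Female NOD.H-2h4 mice, a strain prone to autoimmune inflammation of glands, had received 1 intraperitoneal dose of 20 mg/kg at 4 weeks of age. The dose was anti-CD40L, an antibody against a T cell protein that activates B cells through CD40, or a human IgG1 isotype control antibody, so the controls carry a foreign antibody too. Total salivary gland was taken at the age of 8, 16 or 24 weeks, which gave 6 groups of 5 Affymetrix Mouse Genome 430 2.0 arrays, labelled as biological replicates. The labels do not say whether each array is 1 mouse, and no untreated mice and no other strain were analysed here. Values are log2 intensities, on which a difference of 1 is a doubling, and each gene is given by 1 probe set, so levels are compared between arrays and never between genes.

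Upstream sequence was available for 6 of the 10 members (Acta2, Mylk, Cnn1, Lmod1, Krt14 and Krt5) as the 250 bases before a transcript start in the RefSeq table of mouse build GRCm38.p6. The search covered 2 sequence elements known from smooth muscle promoters, on both strands. The CArG box, which SRF binds, was present exactly in 0 of the 6 windows and in 1.47% of all 32851 windows. With at most 1 substitution in its centre it was present in 1 of 6, Acta2, which held 2 matches, against 8.59% of all windows. CATTCC, bound by factors of the TEAD family, was present in 4 of 6 (Acta2, Mylk, Lmod1 and Krt14) against 12.6% of all windows. The matches of the contractile genes are shown because Acta2 and Mylk belong to a block of genes that moved together across arrays while Lmod1 does not, and capitals mark the matched letters, GGAATG being CATTCC read on the other strand.
Acta2, chr19:34255438-34255467, minus strand: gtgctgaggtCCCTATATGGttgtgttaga
Acta2, chr19:34255388-34255417, minus strand: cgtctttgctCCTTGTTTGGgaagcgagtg
Acta2, chr19:34255502-34255531, minus strand: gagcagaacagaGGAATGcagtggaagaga
Mylk, chr16:34784780-34784809, plus strand: tgcagttcagaaCATTCCctggtacgtgca
Lmod1, chr1:135324671-135324700, plus strand: ccaagattccctGGAATGtcctcaagtttc
A match of letters is a description and not a measured binding site. The start used for Acta2 lies 212 bases inside the annotated gene and that used for Mylk 39751 bases inside it, and those used for Krt14 and Cnn1 1480 and 32 bases inside, so these windows lie at an internal or alternative start. The starts used for Lmod1 and Krt5 are those of the annotated gene.

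The arrays differed in RNA quality in a way that ran with the groups. It was read from probe sets at both ends of 2 control transcripts, beta-actin and Gapdh, as their 3' minus 5' difference, which grows as RNA breaks down. Its mean was 0.566 ± 0.198 (SD, n = 5) in controls and 0.369 ± 0.0984 after anti-CD40L at week 8, 0.291 ± 0.0661 and 0.260 ± 0.0481 at week 16, and 0.406 ± 0.121 and 0.2005 ± 0.0359 at week 24. The week 24 difference of -0.205 had an exact two-sided permutation p = 0.00794, the smallest that 5 against 5 arrays can give (adjusted p = 0.0437 over 33 tests of array measures). There were 5 arrays that correlated less than the others with the rest of the series, namely control week 8 replicates 3 and 4, anti-CD40L week 8 replicates 1 and 3, and control week 24 replicate 1. Markers of acinar cells were bright in every array (mean of their list 11.3 to 12.5), as the tissue label asks, while Amy1, an amylase of the parotid gland, ranged from 6.58 to 13.7 between arrays. After anti-CD40L at week 8 every array read 13.18 to 13.7 for Amy1 (mean 13.42 ± 0.22 SD). In the other groups its mean lay between 9.86 (anti-CD40L week 16) and 11.36 (control week 8), with SDs of 2.36 to 3.21. No array date or batch is given in the labels.

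Of the 7 contractile genes, 6 had their lowest group mean at week 8. In controls 5 of 10 members had risen by week 16 (Acta2, Actg2, Myh11, Mylk and Krt14) and 4 of 10 by week 24 (Mylk, Cnn1, Tagln and Krt14). Actg2 passed the filter on low values only through arrays of the later ages, and 4 of the other 9 members had risen by week 16. After anti-CD40L none had risen by week 16, where 0 of 10 members passed limma's test and 0 had an unadjusted p under 0.05, and 7 of 10 had risen by week 24 (Acta2, Actg2, Myh11, Mylk, Cnn1, Tagln and Trp63), which is 6 of the 9 other than Actg2. Of all 12998 genes, 28.4% rose by week 16 and 8.49% by week 24 in controls, and 24.1% and 16.5% after anti-CD40L, by limma's moderated test with a Benjamini-Hochberg adjusted p under 0.05. The median difference of the 10 members against week 8 was 0.39 and 0.60 in controls and 0.11 and 0.57 after anti-CD40L, and that of all genes tested lay between 0.05 and 0.09. The 2 comparisons of a treatment share its 5 week 8 arrays, so their results are not independent. Under quantile normalization, Lmod1 was called lower and Krt14 was not called from week 8 to week 16 in controls, and Trp63 was not called from week 8 to week 24 after anti-CD40L. The week 8 controls also had the highest 3' minus 5' difference of the 6 groups. The anti-CD40L arrays of week 8 all had a high Amy1 level, while those of weeks 16 and 24 ranged widely.

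**Figure D1:**
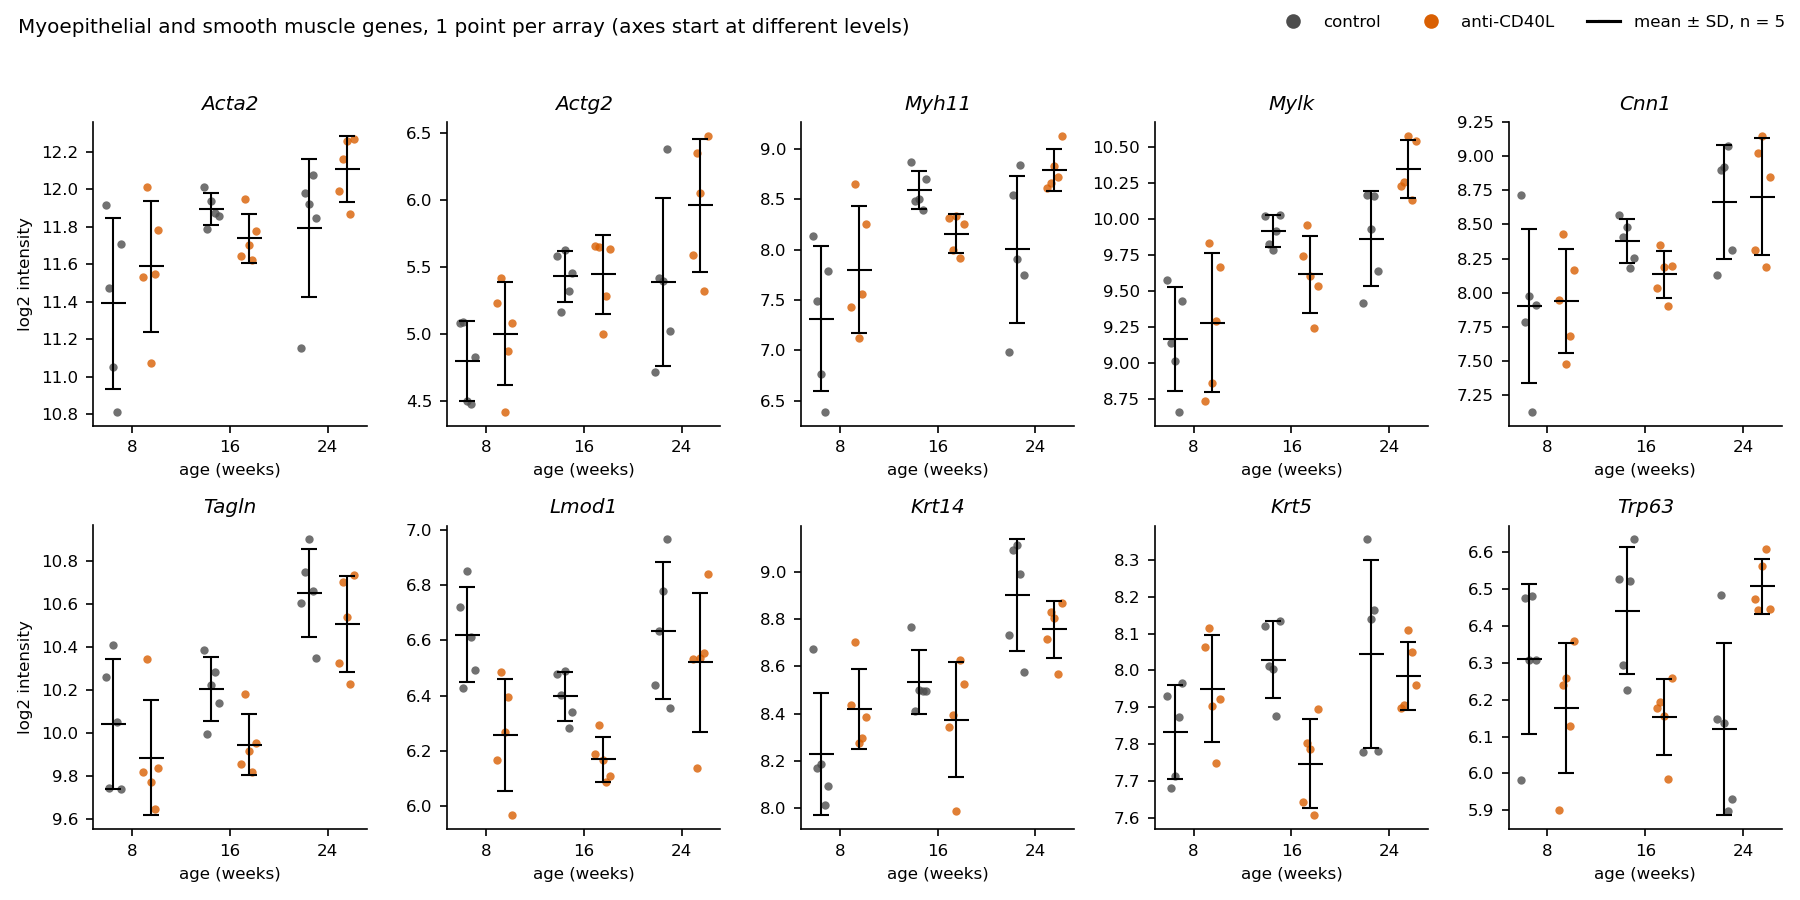
Log2 intensity (y axis, starting at a different level in each panel) of the 10 genes in the 30 arrays by age in weeks (x axis), with controls in grey, anti-CD40L in orange, and the mean ± SD of each group of 5 arrays in black. Mylk stood between 10.13 and 10.58 in the week 24 anti-CD40L arrays and between 8.66 and 9.58 in the week 8 controls, and Trp63 stood between 6.44 and 6.61 in the week 24 anti-CD40L arrays.

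The actins come first. Acta2 (chr19:34240336-34255585) encodes smooth muscle alpha-actin, the filament protein by which myoepithelial cells are commonly stained. In control glands replicates 1 to 5 read 11.92, 11.47, 11.05, 10.81 and 11.71 at week 8, then 12.01, 11.79, 11.94, 11.88 and 11.86 at week 16, and 11.15, 11.98, 11.92, 12.08 and 11.85 at week 24. After anti-CD40L they read 11.54, 12.01, 11.07, 11.55 and 11.78 at week 8, then 11.65, 11.95, 11.71, 11.62 and 11.78 at week 16, and 11.99, 12.16, 12.26, 11.87 and 12.27 at week 24. The week 8 arrays of both treatments were spread over about a whole log2 unit, the week 16 arrays lay close together, and 1 control of week 24, replicate 1, stood far under the other 4. Acta2 rose by 0.50 ± 0.18 (SE) from week 8 to week 16 in controls (limma adjusted p = 0.0239) and by 0.52 ± 0.18 from week 8 to week 24 after anti-CD40L (adjusted p = 0.0363), with the groups overlapping in both. Without control week 8 replicate 3 or 4 or control week 16 replicate 1 the first of these calls was lost (adjusted p 0.052 to 0.109), and the second was lost without any 1 of 6 arrays, anti-CD40L week 8 replicates 1, 3 and 4 and week 24 replicates 2, 3 and 5 (0.0599 to 0.139). Another Acta2 probe set, above the array median in 1 array, differed by 0.58 and 0.81 in the same comparisons. A further one, above the array median in 0 arrays, differed by 0.08 and -0.02.

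Actg2 (chr6:83512909-83536251) encodes smooth muscle gamma-actin, the actin of visceral smooth muscle. It was above the array median in 10 of 30 arrays and passed the filter through arrays of weeks 16 and 24, so a difference from week 8 was built into its passing. Control arrays read 5.08, 5.09, 4.5, 4.48 and 4.83 at week 8, then 5.58, 5.17, 5.63, 5.32 and 5.46 at week 16, and 4.72, 5.42, 5.39, 6.39 and 5.03 at week 24. After anti-CD40L the arrays read 5.23, 5.42, 4.42, 4.87 and 5.08 at week 8, then 5.66, 5.65, 5.001, 5.28 and 5.64 at week 16, and 5.59, 6.36, 6.06, 5.32 and 6.48 at week 24. Every week 16 control stood above every week 8 control, and 4 of 5 treated arrays of week 24 stood above all treated arrays of week 8. Its differences from week 8 were 0.63 ± 0.24 in controls at week 16 (limma adjusted p = 0.0349) and 0.96 ± 0.24 after anti-CD40L at week 24 (adjusted p = 0.00827). With no filter on low values, so that all 18193 genes were tested, the adjusted p was 0.0421 and 0.0103. The difference in controls was not called without any 1 of 5 arrays, control week 8 replicates 3 and 4 and control week 16 replicates 1, 3 and 5 (adjusted p 0.0593 to 0.095).

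Of the motor and its kinase, Myh11 (chr16:14194527-14292188) encodes the smooth muscle myosin heavy chain. Control arrays read 8.14, 7.49, 6.77, 6.39 and 7.79 at week 8, then 8.87, 8.48, 8.51, 8.40 and 8.70 at week 16, and 6.98, 8.54, 7.91, 8.84 and 7.75 at week 24. The treated arrays read 7.43, 8.65, 7.12, 7.56 and 8.25 at week 8, then 8.31, 7.99, 8.33, 7.91 and 8.26 at week 16, and 8.62, 8.66, 8.83, 8.72 and 9.13 at week 24. The week 16 controls were a tight group above every week 8 control and also above every treated array of their own age, while the week 24 controls ran from near the bottom to near the top of the whole range. Myh11 rose by 1.28 ± 0.30 in controls from week 8 to week 16 (limma adjusted p = 0.0017), the largest difference of any member in any comparison, and by 0.99 ± 0.30 after anti-CD40L from week 8 to week 24 (adjusted p = 0.0214). The second call was lost without anti-CD40L week 8 replicate 1 or 3 or week 24 replicate 5 (adjusted p 0.0522 to 0.0786). In controls the week 24 difference of 0.69 ± 0.30 did not pass (adjusted p = 0.125), and it did pass without control week 24 replicate 1 or control week 8 replicate 1 (0.0204 to 0.0376). A second Myh11 probe set, with a mean of 5.28, was above the array median in only 4 arrays. Its differences from week 8 at weeks 16 and 24 were -0.01 and -0.13 in controls, and -0.04 and 0.12 after anti-CD40L.

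Mylk (chr16:34745199-35002436) encodes myosin light chain kinase, the enzyme that starts contraction by phosphorylating myosin. Control arrays read 9.58, 9.14, 9.01, 8.66 and 9.44 at week 8, then 10.02, 9.83, 9.79, 9.92 and 10.03 at week 16, and 9.42, 10.17, 9.93, 10.16 and 9.64 at week 24. With anti-CD40L the values were 8.74, 9.84, 8.87, 9.29 and 9.67 at week 8, then 9.74, 9.96, 9.60, 9.24 and 9.53 at week 16, and 10.23, 10.26, 10.58, 10.13 and 10.55 at week 24. All week 16 controls were above all week 8 controls, all treated arrays of week 24 were above all treated arrays of week 8, and 4 of 5 treated arrays of week 24 were above every control of that age. Mylk rose by 0.75 ± 0.19 by week 16 (limma adjusted p = 0.00283) and by 0.70 ± 0.19 by week 24 (adjusted p = 0.0172) in controls. After anti-CD40L it rose by 1.07 ± 0.19 by week 24 (adjusted p = 0.000861), and its week 16 difference of 0.34 ± 0.19 did not pass (adjusted p = 0.157), though it did without anti-CD40L week 8 replicate 2 (0.0483). The week 24 call in controls was lost without control week 8 replicate 4 or control week 24 replicate 2 (adjusted p 0.0624 to 0.0723). From low to high the group means ran control week 8 (9.17), anti-CD40L week 8 (9.28), anti-CD40L week 16 (9.62), control week 24 (9.87), control week 16 (9.92) and anti-CD40L week 24 (10.35); neighbours in this order were closer than the 0.31 SD within groups except at the step from week 8 to week 16 after anti-CD40L and at the last step. The other 2 Mylk probe sets had differences of the same sign in these 4 age comparisons, for example 0.93 and 0.43 from week 8 to week 16 in controls.

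The groups of Actg2, Myh11 and Mylk did not overlap between weeks 8 and 16 in controls, 3 of 10 members, or 2 of 9 without Actg2, against 26.8% of all genes tested. After anti-CD40L the groups of Mylk and Trp63 did not overlap between weeks 8 and 24, 2 of 10 members against 17.1% of all genes.

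Of the 3 thin filament proteins, 2 were called higher by week 24 in both treatments and 0 by week 16. Of all genes, 8.49% in controls and 16.5% after anti-CD40L were called higher by week 24, and 28.4% and 24.1% by week 16. Cnn1 (chr9:22099221-22109221) encodes calponin, which binds actin and slows myosin. Control arrays read 8.71, 7.78, 7.97, 7.13 and 7.91 at week 8, then 8.57, 8.41, 8.48, 8.18 and 8.26 at week 16, and 8.13, 8.90, 8.92, 9.07 and 8.31 at week 24. In treated glands they read 7.95, 8.43, 7.47, 7.68 and 8.17 at week 8, then 8.03, 8.35, 8.19, 7.90 and 8.19 at week 16, and 8.31, 9.03, 9.15, 8.19 and 8.85 at week 24. In each treatment 3 of 5 arrays of week 24 stood above every array of week 8 and the rest lay among them. Cnn1 rose by 0.76 ± 0.23 from week 8 to week 24 in controls (limma adjusted p = 0.0293) and by 0.76 ± 0.23 after anti-CD40L (adjusted p = 0.0194). The call in controls was lost without any 1 of control week 8 replicates 2 and 4 and control week 24 replicates 2, 3 and 4 (adjusted p 0.0547 to 0.125), and that after anti-CD40L without week 8 replicate 3 or week 24 replicate 3 (0.0546 to 0.0702). At week 16 the difference in controls, 0.48 ± 0.23, had an adjusted p = 0.0859, and it passed without control week 8 replicate 1 (0.0115), the highest of the week 8 controls.

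Tagln (chr9:45929628-45936058) encodes transgelin, also called SM22, an actin-binding protein of smooth muscle and of activated fibroblasts. Control arrays read 10.26, 9.74, 10.41, 10.05 and 9.74 at week 8, then 10.39, 9.997, 10.22, 10.29 and 10.14 at week 16, and 10.60, 10.75, 10.90, 10.66 and 10.35 at week 24. After anti-CD40L the values were 9.82, 10.34, 9.77, 9.65 and 9.84 at week 8, then 9.86, 10.18, 9.92, 9.82 and 9.96 at week 16, and 10.32, 10.71, 10.54, 10.23 and 10.74 at week 24. Weeks 8 and 16 overlapped widely in each treatment, while 4 of 5 controls and 3 of 5 treated arrays of week 24 stood above every array of week 8 of their treatment. Tagln rose by 0.61 ± 0.14 from week 8 to week 24 in controls (limma adjusted p = 0.00623) and by 0.62 ± 0.14 after anti-CD40L (adjusted p = 0.00391). At week 16 its difference was 0.17 ± 0.14 in controls (adjusted p = 0.328) and 0.06 ± 0.14 after anti-CD40L (adjusted p = 0.742).

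Lmod1 (chr1:135324813-135368065) encodes leiomodin 1, which starts actin filaments in smooth muscle, and no comparison called it. Control arrays read 6.72, 6.43, 6.85, 6.61 and 6.49 at week 8, then 6.48, 6.402, 6.49, 6.28 and 6.34 at week 16, and 6.44, 6.63, 6.78, 6.97 and 6.36 at week 24. Treated arrays read 6.17, 6.49, 6.27, 6.395 and 5.97 at week 8, then 6.19, 6.29, 6.17, 6.09 and 6.11 at week 16, and 6.53, 6.14, 6.54, 6.55 and 6.84 at week 24. Controls were mostly above treated arrays at weeks 8 and 16, with 4 of 5 treated arrays under every control at each of these ages. Its group means were lowest after anti-CD40L at week 16 (6.17) and highest in controls at week 24 (6.63). At week 8 the treatment difference was -0.36 ± 0.12 (unadjusted p = 0.00502, limma adjusted p = 0.205).

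Among the basal epithelial genes, Krt14 (chr11:100203162-100207510) encodes keratin 14, which pairs with keratin 5 in basal and myoepithelial cells. Control arrays read 8.67, 8.17, 8.19, 8.01 and 8.09 at week 8, then 8.77, 8.41, 8.50, 8.50 and 8.50 at week 16, and 8.73, 9.10, 9.12, 8.99 and 8.58 at week 24. After anti-CD40L these were 8.44, 8.70, 8.28, 8.30 and 8.38 at week 8, then 8.34, 8.39, 7.99, 8.63 and 8.52 at week 16, and 8.71, 8.83, 8.81, 8.57 and 8.87 at week 24. Replicate 1 of the week 8 controls stood well above the other 4, and those 4 lay under every control of the later ages. Krt14 rose by 0.68 ± 0.13 from week 8 to week 24 in controls (limma adjusted p = 0.00182), and its 0.34 ± 0.13 after anti-CD40L missed the threshold (adjusted p = 0.0537), passing without anti-CD40L week 8 replicate 2 (0.0259). These 2 rises were not shown to differ, the difference between them being -0.34 ± 0.18 (adjusted p = 0.913). The week 16 rise in controls, 0.31 ± 0.13, was called at the edge (adjusted p = 0.0495) and was lost without any 1 of 8 of the 10 arrays compared, all but control week 8 replicate 1 and control week 16 replicate 2 (0.0623 to 0.138). A second probe set of Krt14 differed in the same direction (0.28 and 0.56 in controls at weeks 16 and 24), and a further probe set, under the array medians in every group mean, differed the other way (-0.47 and -0.32).

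Krt5 (chr15:101707069-101712905), the partner keratin, was called in no comparison. Its control arrays read 7.93, 7.68, 7.71, 7.87 and 7.97 at week 8, then 8.12, 8.01, 8.00, 7.88 and 8.13 at week 16, and 7.78, 8.36, 8.14, 8.16 and 7.78 at week 24. Treated glands gave 8.06, 8.12, 7.90, 7.75 and 7.92 at week 8, then 7.64, 7.80, 7.79, 7.61 and 7.90 at week 16, and 7.90, 7.91, 8.11, 8.05 and 7.96 at week 24. At week 16, 4 of 5 treated arrays were under every control, a difference of -0.28 ± 0.10 (unadjusted p = 0.00927, limma adjusted p = 0.151). The change of its treatment effect from week 8 to week 16 was -0.40 ± 0.14 (unadjusted p = 0.00908, adjusted p = 0.207).

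Trp63 (chr16:25683763-25892088) encodes p63, the transcription factor that maintains basal and myoepithelial identity, and it followed neither the keratins nor the contractile genes. Control arrays read 5.98, 6.48, 6.31, 6.48 and 6.31 at week 8, then 6.53, 6.29, 6.23, 6.52 and 6.63 at week 16, and 6.15, 6.48, 6.14, 5.90 and 5.93 at week 24. After anti-CD40L the readings were 5.90, 6.24, 6.26, 6.13 and 6.36 at week 8, then 6.18, 6.19, 6.16, 5.98 and 6.26 at week 16, and 6.47, 6.44, 6.56, 6.61 and 6.45 at week 24. The treated arrays of week 24 were a tight group above every treated array of the other 2 ages, and 4 of the 5 controls of that age were well under them while replicate 2 lay inside their range. Trp63 was the only member that differed between treatments at week 24, higher by 0.39 ± 0.11 (limma adjusted p = 0.0301). It rose by 0.33 ± 0.11 from week 8 to week 24 after anti-CD40L (adjusted p = 0.032), against -0.19 ± 0.11 in controls (adjusted p = 0.248). The change of its treatment effect from week 8 to week 24, 0.52 ± 0.16, had an unadjusted p = 0.0024 and an adjusted p = 0.491. With only the arrays of week 24 in the fit the treatment difference had a limma adjusted p = 0.0964, and that fit called 129 of all 12998 genes in place of 1229. The treatment call was lost without any 1 of control week 24 replicates 1, 3 and 5 and anti-CD40L week 24 replicates 1, 3 and 4 (adjusted p 0.0554 to 0.0802), and the rise after anti-CD40L was lost without any 1 of anti-CD40L week 8 replicates 1, 3 and 4 and week 24 replicates 3 and 4 (0.0526 to 0.117). The other 3 Trp63 probe sets lay under the array medians, at or under 5.14 in every group mean, and their treatment differences at week 24 lay between -0.06 and -0.01.

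Blocking CD40L made no called difference to any of the 10 genes at week 8 or week 16. Of the 10 members, 0 passed limma's test at week 8 (1 at an unadjusted p under 0.05, Lmod1), 0 at week 16 (2, Krt5 and Trp63) and 1 at week 24 (4 unadjusted: Actg2, Myh11, Mylk and Trp63). The shares of all genes called were 0.0692%, 1.88% and 9.46%. At week 24 Actg2 was above the array median in more treated than control arrays, so its passing the filter was not independent of this difference. At week 16 the differences of 9 of 10 members were below 0, with a median of -0.25 against 0.02 for all genes tested, of which 6032 of 12998 were below 0. The exception was Actg2 (0.01 ± 0.24), and Myh11 was the 1 member whose treated and control arrays did not overlap, against 9.05% of all genes. Several members moved together across the arrays, so the 9 are not independent results. With only the 10 arrays of week 16 in the fit, Myh11 (-0.43, adjusted p = 0.042) and Krt5 (-0.28, adjusted p = 0.0462) were called lower at week 16, and with array weights Krt5 (-0.29, adjusted p = 0.0103) and Trp63 (-0.27, adjusted p = 0.0207) were.

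No contractile member passed limma's test between treatments at week 24. The actins, the myosin and its kinase had differences above 0: 0.32 ± 0.18 for Acta2 (adjusted p = 0.238), 0.57 ± 0.24 for Actg2 (0.117), 0.79 ± 0.30 for Myh11 (0.0877) and 0.48 ± 0.19 for Mylk (0.0934). The thin filament proteins had differences of 0.04 ± 0.23 for Cnn1, -0.15 ± 0.14 for Tagln and -0.11 ± 0.12 for Lmod1, and the keratins -0.15 ± 0.13 for Krt14 and -0.06 ± 0.10 for Krt5. The median was 0.18 over the 10 members and 0.03 over all genes tested, and 6 members were above 0, against 5 under quantile normalization and 4 with the 3' minus 5' difference as a covariate (Acta2 and Cnn1 then stood below 0, at -0.09 and -0.33). Whether one contractile gene differed from another in its treatment difference was not tested. Array weights called Myh11 (0.84, adjusted p = 0.0312) and Mylk (0.54, adjusted p = 0.0429) higher beside Trp63. Myh11 also passed without control week 24 replicate 2 or 4 (adjusted p 0.0296 to 0.0467). Actg2, which at this age was above the array median mainly in treated arrays, was called without control week 24 replicate 4 (0.0153). The treatment effect changed between ages in 0 of 10 members. From week 8 to week 16 the count at an unadjusted p under 0.05 was 2 (Myh11 at -0.92 ± 0.43 and Krt5), and 0.146% of all genes were called. From week 8 to week 24 the count was 1 (Trp63), and 0.00769% of all genes were called.

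**Figure D2:**
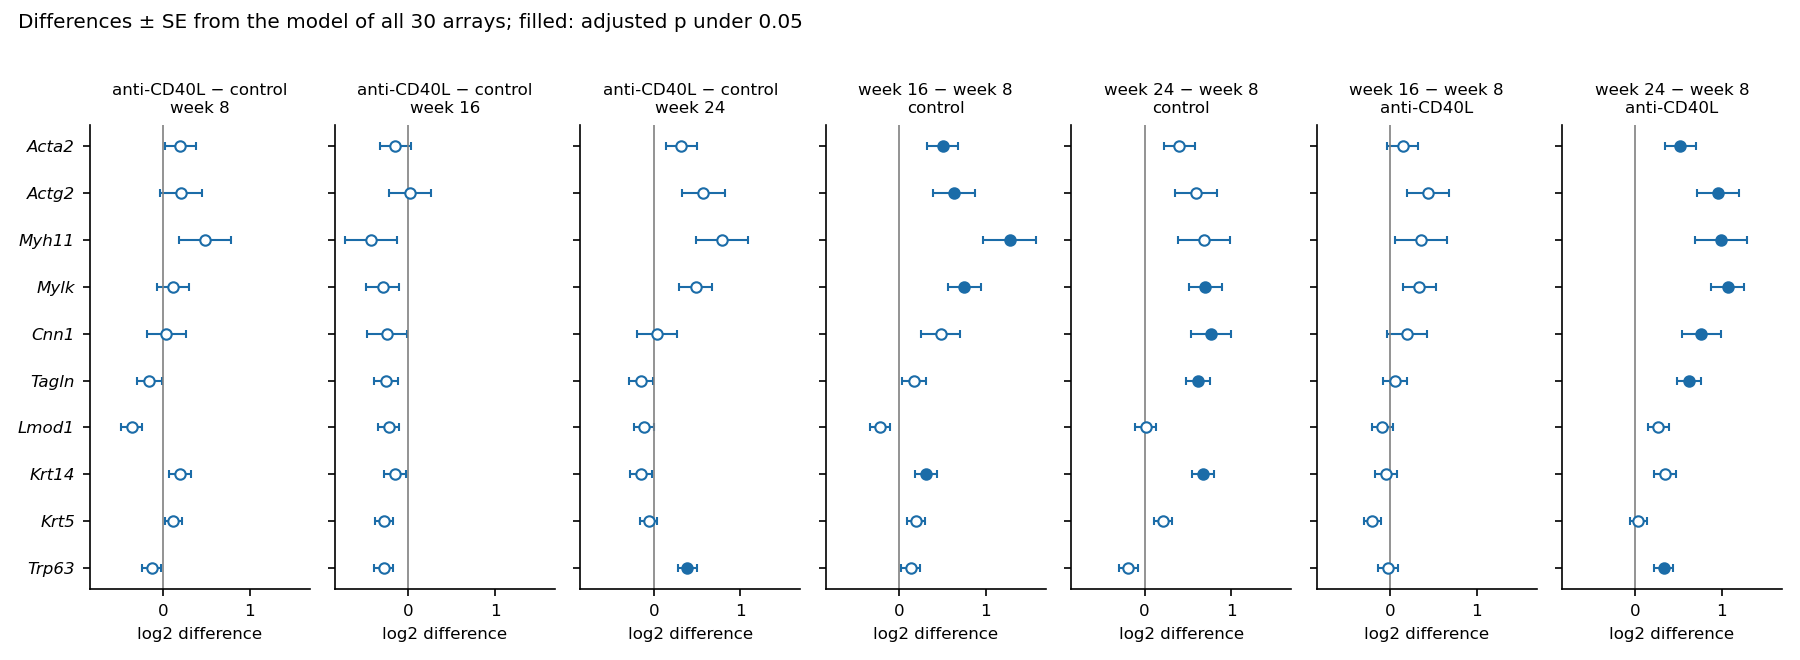
Log2 differences (x axis) ± SE of the 10 genes in the 3 treatment comparisons and the 4 age comparisons, from the model of all 30 arrays, with filled points where the adjusted p was under 0.05. A single treatment difference is filled, Trp63 at week 24 (0.39), while 5, 4, 0 and 7 age differences are filled from left to right.

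Of the 7 contractile members, 5 correlated with RNA quality over the 30 arrays by Pearson's r and 4 of these also by Spearman's rho, while Tagln and Lmod1 did not pass. In that set Myh11 correlated with the 3' minus 5' difference at Pearson r = -0.81 (permutation p adjusted over 10 genes = 5e-05, from the smallest p that 100000 permutations can give) and Spearman rho = -0.62 (adjusted p = 0.0033). Acta2 had r = -0.79 (adjusted permutation p = 5e-05) and rho = -0.46 (0.027), Mylk r = -0.68 (6.7e-05) and rho = -0.60 (0.0033), Actg2 r = -0.61 (0.0009) and rho = -0.53 (0.0093), and Cnn1 r = -0.52 (0.0056) and rho = -0.32 (0.18). The other 5 members had r between -0.36 (Krt14, adjusted permutation p = 0.077) and 0.29 (Lmod1, adjusted permutation p = 0.17). The correlation with RNA quality was computed for the 10 members only, so the share of all genes that have it is not known. Without the 2 arrays farthest from the median of the quality measure, r was -0.67 for Myh11, -0.62 for Acta2, -0.55 for Mylk, -0.49 for Actg2 and -0.31 for Cnn1. After each group's mean was subtracted, r was -0.67 for Myh11 (adjusted permutation p = 0.022), -0.73 for Acta2 (0.022), -0.54 for Mylk (0.04), -0.51 for Cnn1 (0.088) and -0.29 for Actg2 (0.28), so for the first 3 the relation also held within groups. The same order shows in single arrays: control week 8 replicate 4 had the largest 3' minus 5' difference (0.859) and the lowest Acta2, Myh11, Mylk and Cnn1 values of all 30 arrays, and control week 24 replicate 1, with 0.610, was the lowest control of its age for Acta2, Actg2, Myh11, Mylk and Cnn1.

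**Figure D3:**
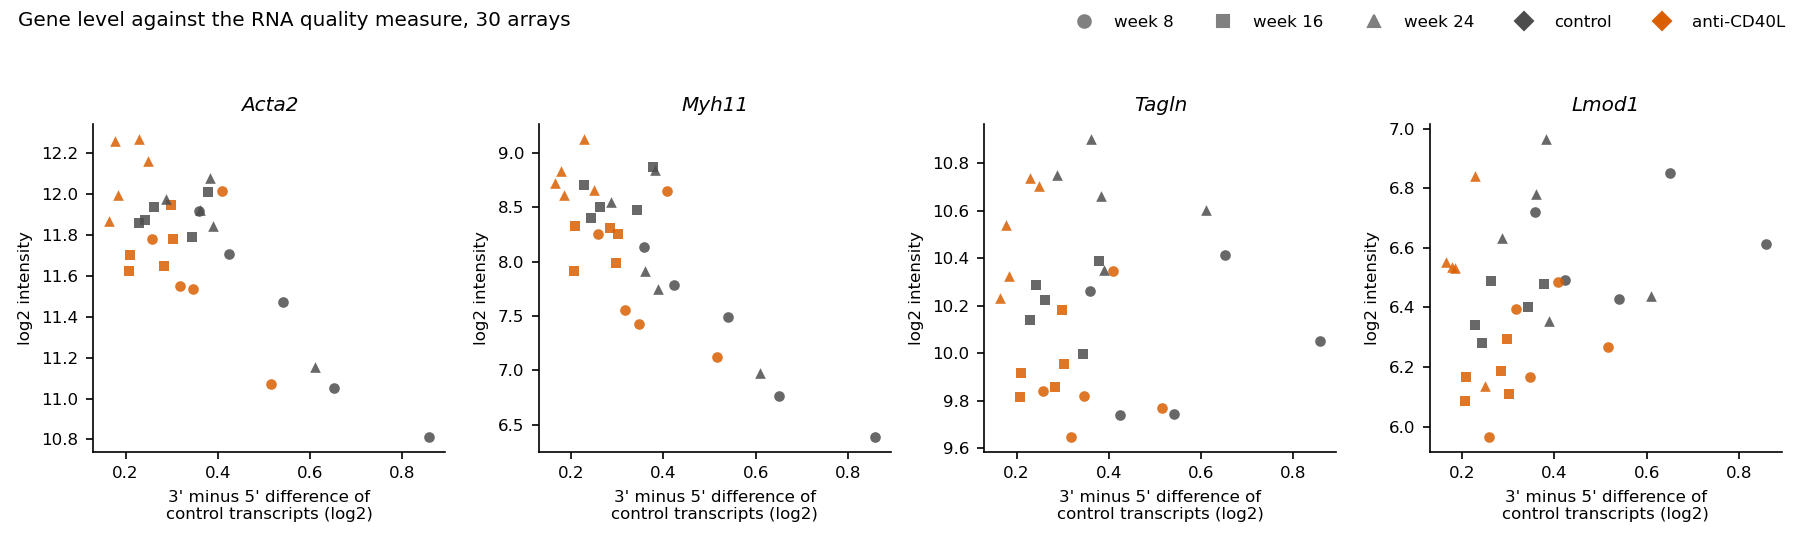
Log2 intensity of Acta2, Myh11, Tagln and Lmod1 (y axes, each with its own range) against the 3' minus 5' difference of control transcripts (x axis, log2; higher means more degraded) in 30 arrays, with the symbol giving the age and the colour the treatment. Acta2 and Myh11 fall from left to right (r = -0.79 and -0.81), and Tagln (r = -0.07) and Lmod1 (r = 0.29) show no such slope.

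With the 3' minus 5' difference as a covariate most calls ended. From week 8 to week 16 in controls Myh11 went from 1.28 to 0.41 (limma adjusted p = 0.422), Mylk from 0.75 to 0.32 (0.372), Actg2 from 0.63 to 0.33 (0.544), Krt14 from 0.31 to 0.16 (0.586), and Acta2 from 0.50 to -0.04 (0.918). From week 8 to week 24 after anti-CD40L Mylk (0.81, adjusted p = 0.0131) and Tagln (0.67, adjusted p = 0.0142) were still called. Actg2 (0.77, adjusted p = 0.0815), Trp63 (0.38, 0.0643), Myh11 (0.46, 0.291), Cnn1 (0.46, 0.221) and Acta2 (0.19, 0.456) were not. In controls Tagln (0.66, adjusted p = 0.0124) and Krt14 (0.59, adjusted p = 0.0121) were still called at week 24, and Mylk (0.45, 0.145) and Cnn1 (0.47, 0.217) were not. Trp63 kept its treatment difference at week 24 in size (0.45 ± 0.13) but not its call (adjusted p = 0.149), and the week 24 differences of Myh11 and Mylk became 0.14 and 0.16. Of all 12998 genes the covariate left 23 called between treatments at week 24, in place of 1229. For week 16 against week 8 in controls it left 620 in place of 6046. For week 24 against week 8 it left 715 in place of 1624 in controls and 633 in place of 3074 after anti-CD40L. Since quality and group moved together, a change with age or treatment and a change with RNA quality cannot be told apart for most of these genes. Without the 5 arrays of lowest correlation, a choice made after seeing the data, Myh11 and Mylk were still called from week 8 to week 16 in controls, and Actg2, Mylk and Tagln from week 8 to week 24 after anti-CD40L. With only the 10 arrays compared in the fit, none of the 4 calls from week 8 to week 24 in controls was made (limma adjusted p = 0.128 for Mylk, 0.193 for Cnn1, 0.114 for Tagln and 0.0902 for Krt14). That fit called 41 of all 12998 genes in place of 1624. With the level of Amy1 as a covariate, Acta2 (adjusted p = 0.117), Myh11 (0.0808), Cnn1 (0.0554) and Trp63 (0.0554) were no longer called from week 8 to week 24 after anti-CD40L.

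**Figure D4:**
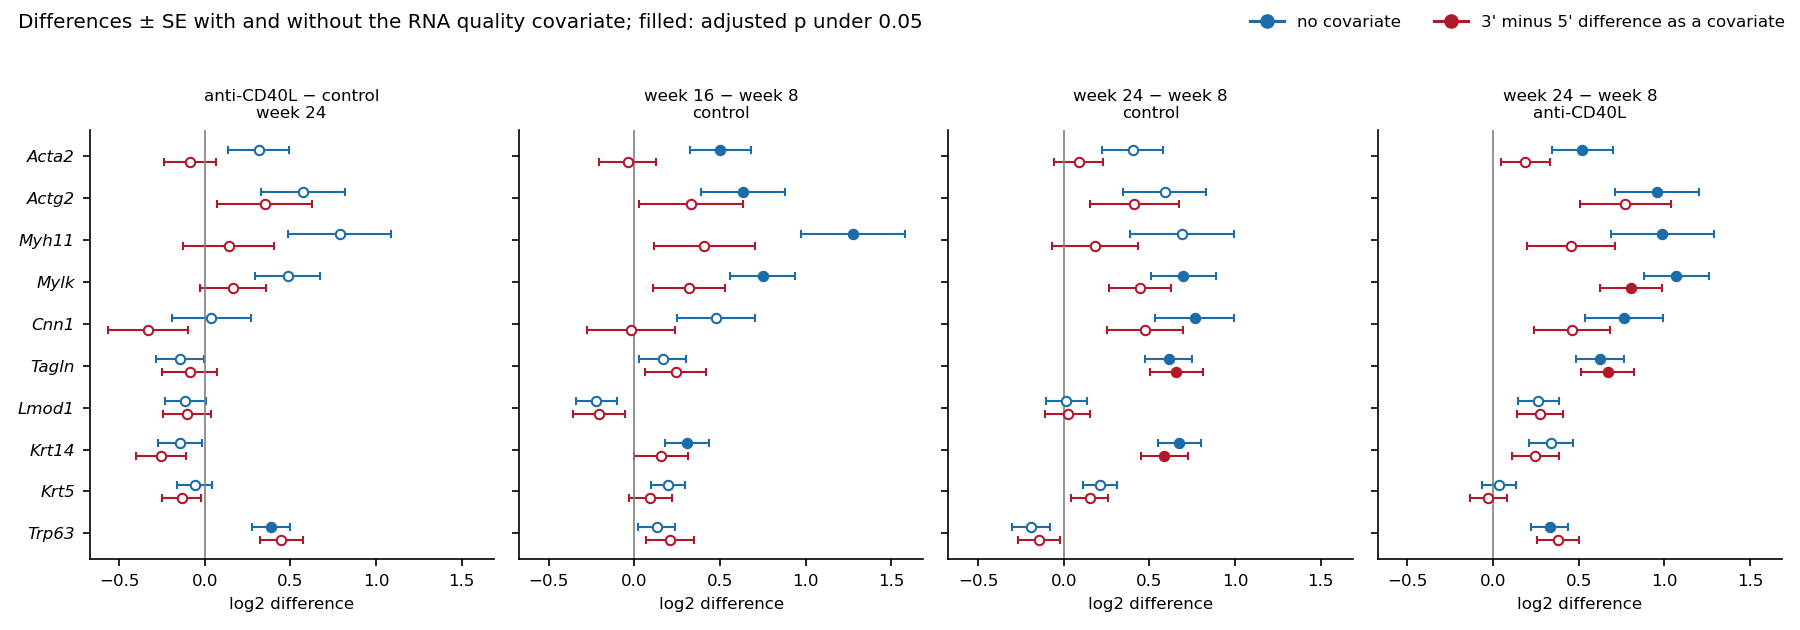
Log2 differences (x axis) ± SE of the 10 genes in 4 comparisons, without a covariate in blue and with the 3' minus 5' difference as a covariate in red, with filled points where the adjusted p was under 0.05. With the covariate the filled points are Tagln and Krt14 at week 24 in controls and Mylk and Tagln at week 24 after anti-CD40L.

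Within the 10 genes there was a tight block and several outsiders. Over the 30 arrays the 10 pairs among Acta2, Actg2, Myh11, Mylk and Cnn1 had r between 0.74 and 0.92 and rho between 0.71 and 0.91 (permutation p adjusted over 45 pairs at most 6.9e-05). Without the 2 arrays farthest from the median r was 0.68 to 0.88, and after subtraction of group means 0.59 to 0.89, so these genes also moved together within groups. Tagln joined them with r between 0.35 (Myh11) and 0.77 (Cnn1), and Lmod1 correlated with the other 6 contractile members at 0.04 to 0.60. Krt14 ran closer to Cnn1 (r = 0.81) and Tagln (r = 0.80) than to its partner Krt5 (r = 0.58). Trp63 had r between -0.02 and 0.38 with the other 9. The arrays differ in RNA quality and in Amy1 level as given above, and the part of these in these correlations was not tested apart from the relation to quality.

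**Figure D5:**
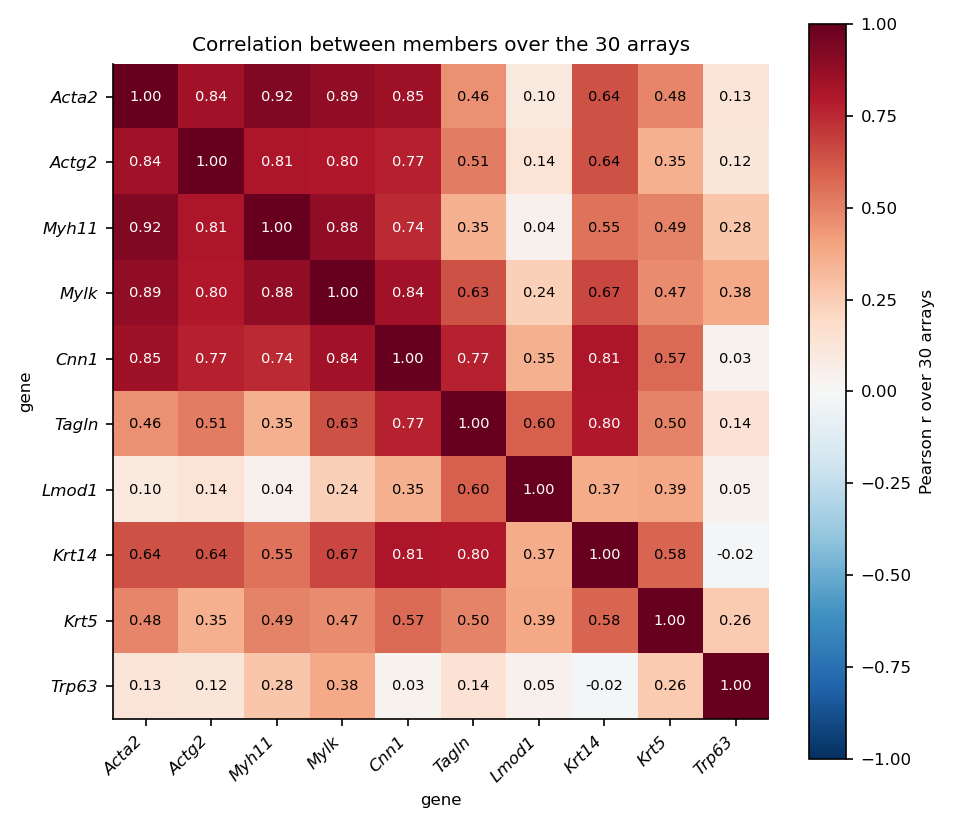
Pearson correlation of each pair of the 10 genes over the 30 arrays (both axes list the genes; colour and printed number give r). The square of Acta2, Actg2, Myh11, Mylk and Cnn1 holds values of 0.74 to 0.92, and the Trp63 row stays at or under 0.38.

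Against the mean of the 7 contractile members, each centred and scaled, the highest Pearson r over 30 arrays were those of Tpm2 (0.93) and Tpm1 (0.87), which encode tropomyosins, Myl9 (0.91), the regulatory light chain of smooth muscle myosin, Pgm5 (0.88), a protein of adhesion sites in muscle, and Prnp (0.87), the prion protein. Against the mean of the 3 basal members they were Pgm5 (0.78), Igfbp4 (0.77), Cpxm1 (0.75), Dglucy (0.75) and Sqor (0.74). After subtraction of group means the basal list had r of 0.54, 0.47, 0.39, 0.55 and 0.35 in the same order, and the contractile list 0.72 to 0.92. The basal mean joins Krt14 and Trp63, which did not move together (r = -0.02).

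Among 18 other genes of the contractile apparatus, all tested, 2 were higher after anti-CD40L at week 24. Cald1, which encodes caldesmon, averaged 11.65 against 11.20 in controls (0.45 ± 0.10, limma adjusted p = 0.00932). Vcl, which encodes the adhesion protein vinculin, differed by 0.81 ± 0.23 (adjusted p = 0.0301). Of all genes, 9.46% were called in that comparison. The median of the 18 was 0.32 at week 24, and 0 passed at week 8 (1 unadjusted) and at week 16 (5 unadjusted). By age, 8 rose and 1, Ppp1r14a, fell from week 8 to week 16 in controls, 4 rose by week 24 in controls, 6 rose and 1, Myl6, fell by week 16 after anti-CD40L, and 11 rose by week 24 after anti-CD40L. Beside these 8, 4, 6 and 11 of 18 stand the 28.4%, 8.49%, 24.1% and 16.5% of all genes that rose. That last group included Myl9, whose product the kinase phosphorylates (0.59 ± 0.21, adjusted p = 0.0375), Tpm1 (0.37 ± 0.13, adjusted p = 0.0396) and Tpm2 (0.53 ± 0.16, adjusted p = 0.0211).

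Of the regulators, 7 genes of the SRF and RhoA pathway were tested, and 2 were higher after anti-CD40L at week 24. These were Srf itself (0.39 ± 0.12, limma adjusted p = 0.0383) and its cofactor Mrtfb (0.48 ± 0.14, adjusted p = 0.0377), where 9.46% of all genes were called. Mrtfb went the other way as the median over its probe sets (-0.14, adjusted p = 0.487). Myocd, the cofactor specific to muscle, was under the filter. By age 5 of the 7 rose from week 8 to week 16 in controls and 0 by week 24 (1 unadjusted), and after anti-CD40L 3 rose by week 16 and 2, Mrtfb and Elk4, by week 24. The shares of all genes that rose were 28.4% and 8.49% in controls and 24.1% and 16.5% after anti-CD40L. With the 3' minus 5' covariate the treatment differences were 0.39 for Cald1 (adjusted p = 0.165), 0.28 for Vcl (0.646), 0.21 for Srf (0.58) and 0.34 for Mrtfb (0.456). Leaving out single arrays of week 24 ended the calls of Vcl (5 arrays: control replicates 1 and 3, anti-CD40L replicates 3, 4 and 5; adjusted p up to 0.137), Mrtfb (5 arrays: control replicates 1 and 3, anti-CD40L replicates 1, 4 and 5; up to 0.142) and Srf (7 arrays: control replicates 1 and 3 and all 5 treated; up to 0.167), and that of Cald1 in no case. With only the arrays of week 24 in the fit none of the 4 passed (limma adjusted p = 0.0514 for Cald1, 0.0547 for Vcl, 0.117 for Srf and 0.0607 for Mrtfb). That fit called 129 of all 12998 genes in place of 1229. Vcl also lost its call as the median over its probe sets (adjusted p = 0.0534), and Srf as that median (0.068), under quantile normalization (0.0776) and without the 5 arrays of lowest correlation (0.0667).

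Of the receptors that drive contraction, 4 were tested and none passed in a treatment comparison; Agtr1a, the angiotensin receptor, had the largest treatment difference (0.33 ± 0.17 at week 24, adjusted p = 0.205). Oxtr and Chrm3 were under the filter. Of 13 other basal epithelial and hemidesmosome genes tested, Egfr was lower after anti-CD40L at week 16 (-0.27 ± 0.07, limma adjusted p = 0.0307), with 5 of 5 treated arrays under every control, and 0 passed at week 24 (4 unadjusted). Of all genes, 1.88% were called and 9.05% had groups that did not overlap at week 16, and 9.46% were called at week 24. The Egfr call was lost as the median over its probe sets (-0.02, adjusted p = 0.971) and without any 1 of control week 16 replicates 1, 2, 4 and 5 and anti-CD40L week 16 replicates 1, 2 and 5 (adjusted p up to 0.0939). By age this list went both ways, with 5 up and 2 down from week 8 to week 16 in controls, 1 up and 4 down by week 24 in controls, 2 up and 3 down by week 16 and 4 up and 2 down by week 24 after anti-CD40L. Of all genes 28.4% rose and 18.1% fell, 8.49% rose and 4.01% fell, 24.1% rose and 12.5% fell, and 16.5% rose and 7.12% fell in these 4 comparisons in the same order. Lamb3, a laminin chain of the hemidesmosome, rose by 0.71 ± 0.14 in controls (adjusted p = 0.0033) and by 0.81 ± 0.14 after anti-CD40L (adjusted p = 0.000861) at week 24, a gene picked after its values were seen.

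Among marker lists of other cells that could carry or dilute these transcripts, those of fibroblasts, acinar cells, B cells and T cells differed between treatments at week 24, and those of mural cells, endothelium, skeletal muscle and parotid acini did not pass between treatments at any age. The list levels were not tested between ages. Of the 8 pericyte and vascular mural markers, 7 were above the filter (Higd1b was not). Their mean log2 level differed between treatments by -0.02, 0.02 and 0.02 at weeks 8, 16 and 24, with arrays from 6.43 to 6.82 in controls and from 6.56 to 6.70 after anti-CD40L at week 24. Notch3 alone of them was called between treatments (0.53 ± 0.15 at week 24, limma adjusted p = 0.0319). By age Notch3 rose by 0.49 from week 8 to week 16 in controls (limma adjusted p = 0.0116) and by 0.43 by week 24 after anti-CD40L (0.0432), and Mcam rose by week 24 in both treatments (0.38, adjusted p = 0.0283, and 0.45, 0.00842). Abcc9 fell by week 16 in controls (-0.39, limma adjusted p = 0.013) and Cspg4 by week 16 after anti-CD40L (-0.56, 0.00595). The mean level of 6 endothelial markers, all above the filter, was higher after anti-CD40L by 0.30, 0.08 and 0.24 at weeks 8, 16 and 24 (exact permutation test, adjusted p = 0.175, 0.536 and 0.112), with arrays from 6.49 to 6.68 against 6.15 to 6.55 in controls at week 24, and no endothelial marker was called between treatments. The level of 6 fibroblast markers, all above the filter, was 8.77 to 9.84 after anti-CD40L against 9.87 to 10.13 in controls at week 16, and 9.89 to 10.66 against 9.48 to 9.86 at week 24 (exact permutation p = 0.00794 and adjusted p = 0.0437 at each age). Lum was lower after anti-CD40L at week 16 (-1.11 ± 0.27, limma adjusted p = 0.0344), and Col1a2 (0.84 ± 0.24, adjusted p = 0.0319) and Pdgfra (0.74 ± 0.16, adjusted p = 0.00819) were higher at week 24.

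At week 24 the 4 acinar markers, all above the filter, were at 12.15 to 12.40 after anti-CD40L against 11.31 to 12.08 in controls. The 4 B cell markers with a probe set were at 5.63 to 6.99 against 7.86 to 9.93, and the 5 T cell markers at 5.14 to 5.93 against 6.08 to 7.90 (exact permutation p = 0.00794 and adjusted p = 0.0437 for each list). Bhlha15 of the acinar list was higher (0.77 ± 0.19, limma adjusted p = 0.0134). All 4 B cell markers were lower after anti-CD40L than in controls, with Ighm at -3.98 ± 0.77 (limma adjusted p = 0.00429). So were 4 of 5 T cell markers, with Cd3d at -2.31 ± 0.46 (limma adjusted p = 0.00576). The control glands of week 24 held more RNA of these lymphocyte markers than the treated ones, and the part of these differences in the values of the 10 genes was not tested. Of 8 skeletal muscle markers 5 were under the filter, and the list ranged from 4.67 to 5.05 at weeks 8 and 16 and from 4.78 to 6.61 at week 24.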

How the data were processed

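Labelled cRNA from 2 ug of total RNA of whole salivary gland was hybridised to 30 arrays in 6 groups of 5, per the labels. The authors deposited a table of 45101 probe sets whose values, from 2.757 to 14.457 with array medians of 5.487 to 5.537, were read as log2 intensities. The submitters' processing notes name limma without a version, and the summarisation of probes and the scaling between arrays are not given in the sources used here. The values were used as deposited, with no value missing.

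The 64 control probe sets were left out. Probe sets to which the platform annotation gave exactly 1 gene were kept (34945 probe sets, with 932 naming several genes and 9160 none), and each of the 18193 genes was represented by its probe set of highest mean. Genes above the median of their array in at least 5 arrays were tested, 12998 in all, and this filter applies to all arrays whatever their group. Group means were fitted over the 30 arrays with limma 3.58.1 in R 4.3.3, with 9 comparisons and Benjamini-Hochberg adjustment over all genes tested; a gene was called at an adjusted p under 0.05. The errors beside differences are standard errors from this model, and the number of arrays limits the precision. Array measures were compared by two-sided exact permutation tests and correlations by 100000 permutations. On simulated data with 12998 genes the treatment comparison at week 24 recovered 44.8% of log2 shifts of 0.5, 92.5% of 1 and 98.5% of 2, with 3.68% of calls false. The simulated noise was independent between genes, with the same SD in every group and no difference in RNA quality. These rates therefore cannot be taken as those of the real arrays.

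The 10 members and all gene lists were chosen with earlier results of these data known. Named beside the members are, from each companion list, the genes that passed in a treatment comparison (up to 4 per list and comparison) or else the 1 with the largest treatment difference, up to 3 passing genes of each marker list, and the 5 genes most correlated with the contractile and with the basal members; names of genes that passed with age only were added after their values were seen. The alternatives were quantile normalization, centring, no filter, a 70th percentile filter, probe sets averaged by their median, array weights, 2 covariates, only the groups compared, a replicate block, single arrays left out, and, chosen after seeing the data, leaving out 5 arrays of low correlation. No pairing by replicate number was made. No 2 arrays were duplicates, the highest correlation between arrays being 0.994.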

Additional observations from a re-analysis of the deposited data

Results flagged for a closer look

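In 4 of 60 combinations of gene and group 1 array stood apart from the other 4, where chance gives about 1 in 20. Acta2 read 11.153 in control week 24 replicate 1, with the nearest control of that age at 11.847. This array is also the one with the largest 3' minus 5' difference of its group (0.610). Tagln read 10.344 in anti-CD40L week 8 replicate 2, with the nearest array at 9.839. Krt14 read 8.673 in control week 8 replicate 1, with the nearest at 8.185, and 8.768 in control week 16 replicate 1, with the nearest at 8.502.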

How the results depend on the processing

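Of the 17 calls of members over the 9 comparisons, 2 held under all 11 alternatives and without any single array, the week 24 rises of Mylk and Tagln after anti-CD40L, and 1938 of 2045 recomputed member values kept their side of the threshold. At week 16, array weights and the fit of only the groups compared each called 2 members lower between treatments in place of 0, while the genes called of 12998 went from 245 to 1557 and 965. At week 24 the treatment count of 1 (Trp63) became 3 with array weights, where the genes called of 12998 went from 1229 to 1624. It became 0 with the 3' minus 5' covariate and with only the groups compared, where the genes called went to 23 and 129. With the stricter filter (7 members tested) and the median over probe sets (8 tested) it was also 0, but Trp63 was not among the members tested. Those 2 fits called 1212 of 9184 and 1010 of 11498 genes. From week 8 to week 16 in controls the count of 5 became 3 with the median over probe sets, where Acta2 was not among the members tested. It became 0 with the 3' minus 5' covariate and 2 without the 5 arrays of lowest correlation. From week 8 to week 24 in controls the count of 4 became 2 with the 3' minus 5' covariate and 0 with only the groups compared. The count over all genes there went from 1624 to 715 and 41. After anti-CD40L, 1 member (Krt5, lower) was called at week 16 under quantile normalization in place of 0. The count of 7 at week 24 became 2 with the 3' minus 5' covariate, 3 with the Amy1 covariate and 3 without the 5 arrays, while the count over all genes went from 3074 to 633, 1412 and 1110. In controls at week 16 the count over all genes went from 6046 to 620 with the 3' minus 5' covariate and 4330 without the 5 arrays. Leaving out 1 array at a time gave 0 to 3 calls between treatments at week 24 (0 at weeks 8 and 16), 2 to 6 and 2 to 8 at weeks 16 and 24 in controls, 0 to 1 and 3 to 8 after anti-CD40L, and 0 for both changes of the treatment effect. Among called differences of named genes the direction turned in 2, Acta2 from week 8 to week 16 in controls with the 3' minus 5' covariate (-0.038) and Mrtfb at week 24 with the median over probe sets (-0.14). Of 73 member differences that were not called, 24 turned at least once. Apart from the fits with fewer members tested, the cause was not tested. Quantile normalization moved the median over all genes by up to 0.13.

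Replicate numbers did not pair the arrays: same-numbered arrays had correlated deviations over 0.1 throughout in 1 of 15 pairs of groups. A replicate block ended 1 call, Krt14 from week 8 to week 16 in controls (adjusted p = 0.0597), which took that count from 5 to 4, and changed no other call of a member.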
